A study of Mus musculus with 36 samples.

Results

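Epididymal white adipose tissue, the fat depot attached to the epididymis, was profiled before any dietary group was formed. The 12 arrays labelled t0 were taken out of 36 in the series by that label. Each came from 1 adult male C57BL/6J mouse killed after 3 weeks of free access to a purified diet, in which fat gave 30% of the energy. All 12 mice share this diet, so no lean or chow-fed baseline stands beside them. From 500 ng of RNA of each mouse a Cy5-labelled copy was hybridised to 1 Agilent array together with a Cy3-labelled pool made from all samples of the series. No other group was compared here. The study's title names high-fat dietary restriction and metabolic health, and these mice are its starting point.

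White fat stores triglyceride in adipocytes, which take up fatty acids released by lipoprotein lipase, make some of their own, coat the stored droplet with proteins of the perilipin and CIDE families, and secrete hormones such as leptin and adiponectin. Between the adipocytes lie fibroblasts, endothelium, macrophages, lymphocytes and mast cells, and a mesothelium covers the depot. The epididymal pad lies against the epididymis, the vas deferens and the seminal vesicles, which make secreted proteins of their own. In such bulk tissue, fewer cells of a type and less RNA per cell cannot be told apart.

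A pair of measures is used. The level of a gene is the log2 Cy5 value of its brightest probe in the series matrix, which was available for 15345 genes. A level is the brightness of a spot. It depends on the probe's sequence as well as on the amount of RNA, so the order of genes is an order of brightness. Of 5180 genes with 2 or more probes, the median gap between the brightest and the dimmest probe was 2.08 log2 units, and the gap was at least 1 unit for 74.4% of them. The spread of a gene is the standard deviation (SD) over arrays of its log2 Cy5/Cy3 ratio, normalised from the scanner files, for the 16008 genes whose Cy5 signal stood above background on at least 9 arrays. The ratio sets each mouse against the same pool, so it compares mice for 1 gene and says nothing about levels between genes. How precise both measures are is limited by there being 12 arrays.

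The arrays differed in brightness. The median Cy5 signal ran from 124 to 372, highest on t0 4, and the share of probes above background ran from 55.7% on t0 10 to 86.3% on t0 2. No Cy5 probe was saturated. Each array lay on a slide of its own, so slide and mouse cannot be told apart. The 4 positions on a slide held 3 arrays each. Limma's F test over these positions called 0 of 16008 genes (0%) at an adjusted p under 0.05 (smallest adjusted p = 0.630), and 1203 genes (7.51%) had an unadjusted p under 0.05. Left without t0 10, the test called 1 gene. No pair of positions holds enough arrays for correlations within a position.

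Adipocyte genes led the order of levels. Fabp4, the fatty acid binding protein of adipocytes, was the brightest of the 15345 genes at 18.92 ± 0.18 (SD, n = 12), with values of 18.57, 18.92 and 19.18 on the lowest, the median and the highest array. Its probe lies at chr3:10187065-10187794 on the reverse strand (mm8), a span longer than the probe because it crosses an intron in genome coordinates. Gsn, which encodes the actin-severing protein gelsolin, followed at 18.72 ± 0.27. Cfd, the complement factor adipsin that adipocytes secrete, was at 18.38 ± 0.51, and its 12 values ran from 17.71 to 19.34. Adipoq, the gene of adiponectin, was at 18.30 ± 0.26, with 18.01, 18.24 and 18.72 on the lowest, the median and the highest array. The ranges of these genes over the arrays overlapped, and differences between neighbours in this order were not tested.

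The remaining places among the 20 brightest genes with curated names fell to several functions. Droplet and caveola proteins were Cidec (18.29 ± 0.29), which promotes droplet fusion, Plin4 (17.93 ± 0.25), a droplet coat protein, Cavin1 (18.30 ± 0.16) and Cav1 (17.88 ± 0.24), which shape caveolae. Lpl, the lipase that frees fatty acids from lipoproteins, was at 17.97 ± 0.28, and its secreted inhibitor Angptl4 was at 17.92 ± 0.30. Car3, a carbonic anhydrase abundant in fat, was at 18.19 ± 0.23, and Dbi, the acyl-CoA binding protein, at 17.94 ± 0.19. Hp, the haemoglobin-binding plasma protein haptoglobin, was at 18.20 ± 0.54 and was highest on t0 2 at 19.47. The ribosomal genes Rplp1, Rplp2 and Rps23, the respiratory chain gene Cox6a1 and the interferon-inducible genes Ifi27l2a and Ifi27 made up most of the rest. The last place went to Rps23 at 17.88, and Rps12 stood just outside at 17.87.

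**Figure D1:**
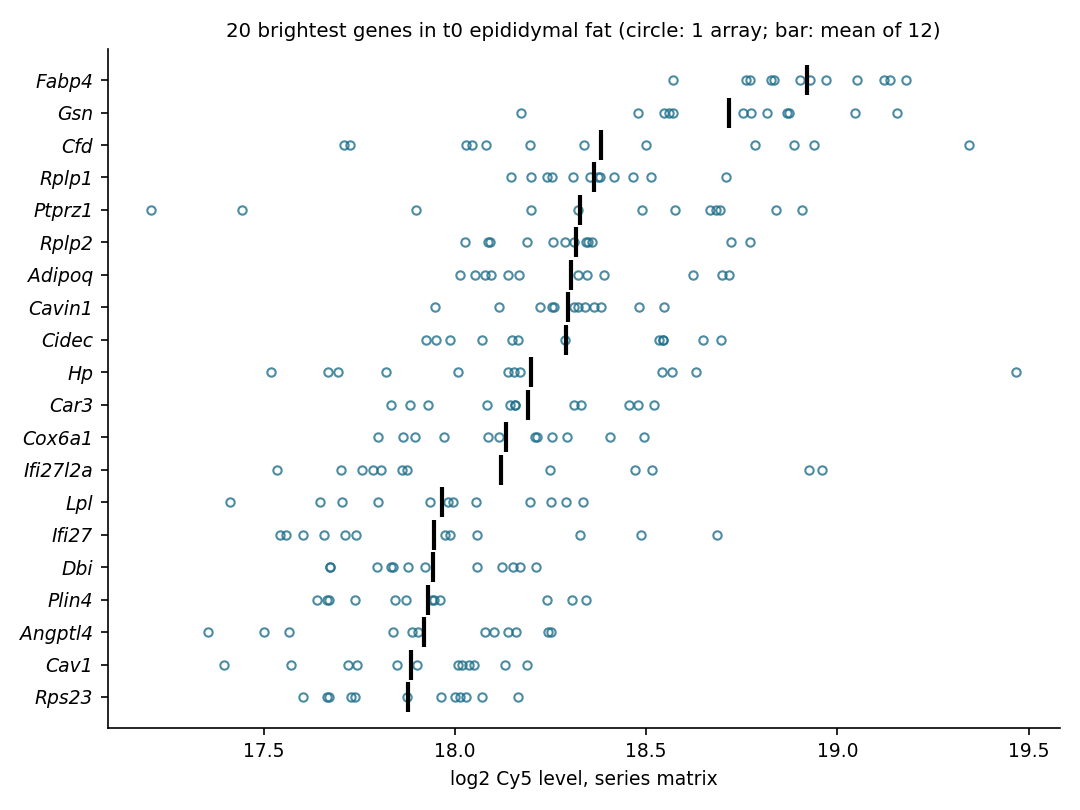
Log2 Cy5 level (x axis) of the 20 brightest genes with curated names in t0 epididymal fat; each circle is 1 array and each bar the mean of 12. Fabp4 is on top at 18.92, the arrays of neighbouring genes overlap, and Cfd, Hp and Ptprz1 spread the most, with SDs of 0.51, 0.54 and 0.55.

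Ptprz1, a receptor phosphatase known from glia, held the fifth place at 18.33, and here the probe and the gene have to be kept apart. This value came from 1 probe built on a transcript sequence of that name. A second probe of the gene read 7.00 in the same matrix. The ratios of these 2 probes were uncorrelated across the arrays, with an r of -1.73e-05. The bright signal is therefore given for the probe and not for the gene. Ifi27 showed the same kind of split on a smaller scale, with levels of 17.94 and 16.51 and an r of -0.58 between the ratios of its probes, while the 2 Ifi27l2a probes read 18.12 and 17.91 with an r of 0.87.

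The signal was spread over many genes. The brightest gene took 0.618% of the summed linear signal on the median array, the 10 brightest took 4.52%, the 100 brightest 23.2% and the 1000 brightest 63.6%. By mean signal 505 genes gave 50% of the total. The order was stable from mouse to mouse, with rank correlations between arrays from 0.982 to 0.995 across the 15345 genes, which are not independent of one another. Of the 20 brightest genes, 14 to 18 were also among the 20 brightest on any single array.

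Gene groups fell along this order by cell type and function. The 13 adipocyte markers in the matrix had a median level of 17.93, above 99.9% of all genes, and the sample thus carried its labelled tissue's defining genes. Lep had no level in the matrix table used here and is described by its ratio. The 30 cytosolic ribosomal protein genes had a median level of 16.28 and the 26 respiratory chain genes one of 15.16, above 99.0% and 97.4% of all genes. The 20 genes of triglyceride synthesis and the droplet coat had a median of 13.99, with Fabp4, Cidec and Lpl on top. The 21 genes of fatty acid synthesis had a median of 12.41, led by Fasn, the fatty acid synthase, at 17.68 ± 0.63, and Scd1, the desaturase that makes monounsaturated fatty acids, at 17.47 ± 0.31. The median over all genes was 9.79.

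The genes of the other cell types were dimmer as groups, with single bright members. The 22 macrophage markers had a median of 11.72, and Lyz2, the macrophage lysozyme, reached 17.76 ± 0.34. The endothelial markers had a median of 12.30, led by the water channel Aqp1 at 15.73 ± 0.28, and those of preadipocytes and fibroblasts one of 12.08. The collagen and matrix genes had a median of 11.69, with the proteoglycan gene Dcn at 16.68 ± 0.21 and Col3a1, a fibrillar collagen, at 15.97 ± 0.37. Mesothelial markers had a median of 11.46, led by Efemp1 at 15.31 ± 0.21 and followed by Msln, the gene of mesothelin, at 14.08 ± 0.39. Markers of T and NK cells (7.59), mast cells (8.55), neutrophils (7.36), skeletal muscle (7.85) and testis and sperm (7.05) lay below the median of all genes. These 5 medians cover only markers with a level in the matrix. They were, in that order, 12 of 16, 7 of 10, 4 of 12, 9 of 16 and 6 of 12 genes. The 18 circadian clock genes had a median of 9.60 and the 16 cell cycle genes one of 8.50.

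Most genes differed little between the 12 mice. The median SD of the log2 ratio was 0.129, 83.2% of genes had an SD under 0.2, and 153 of 16008 genes (0.956%) had an SD of at least 0.5. An SD of 1 or more was reached by 12 genes (0.0750%). The median SD was 0.177 for the animals' Cy5 channel against 0.088 for the Cy3 channel of the pool, which was the same RNA on every array. Cy5 carried the mouse and Cy3 the pool throughout, so dye and RNA source cannot be told apart in this difference. Among the 153 genes, which were picked by the SD of their ratio, the median was 0.656 in Cy5 and 0.097 in Cy3. Probes printed in 10 spots had a median SD of 0.086 between the spots of 1 array, beside 0.095 between arrays for the same probes. Median SDs ran from 0.122 in the dimmest to 0.133 in the next of 4 equal classes of brightness. Large spreads were less evenly placed, since an SD of at least 0.5 was reached by 0.300% of the dimmest class (12 genes) and 1.87% of the next (75 genes).

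**Figure D2:**
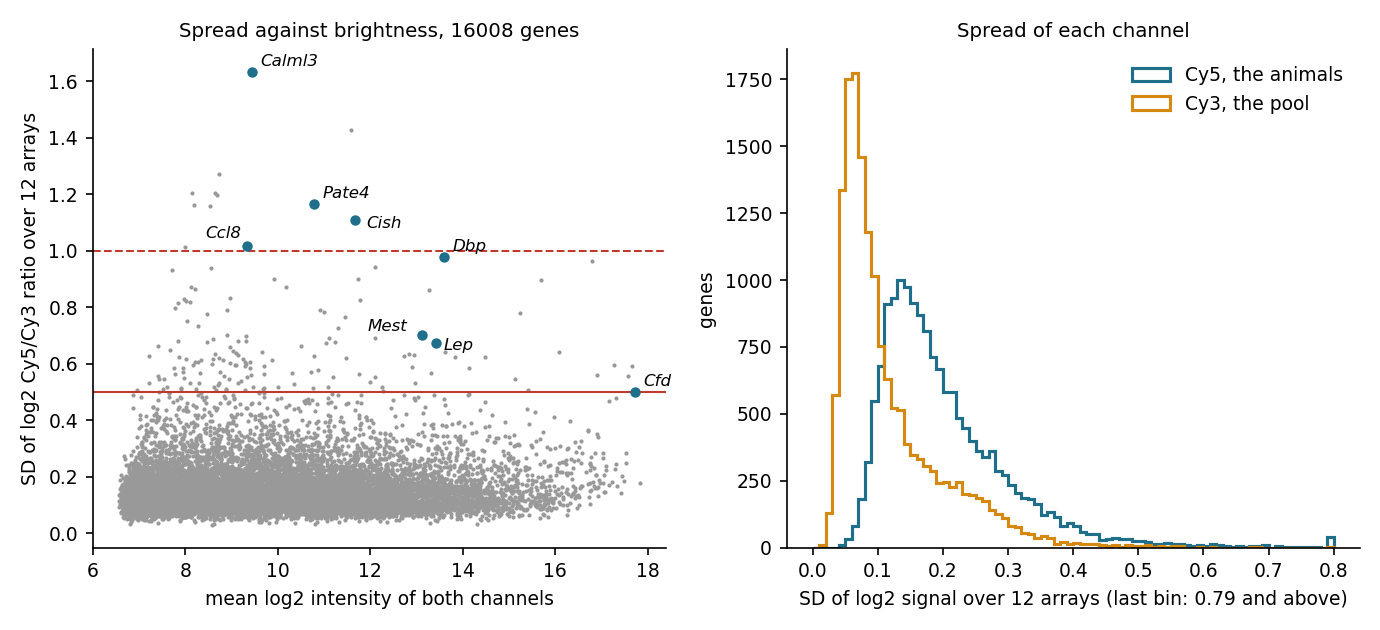
Left, SD of the log2 Cy5/Cy3 ratio over the arrays against mean log2 intensity for 16008 genes, with lines at 0.5 (solid) and 1 (dashed); right, number of genes by the SD of each channel's log2 signal. A few genes rise far above a flat band, and the pool's channel has the smaller spread, the medians being 0.177 for Cy5 and 0.088 for Cy3.

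Separate probes gave the large spreads again in their pattern but not always in their size. For 33 of the 153 genes a second probe passed the filter. The median r between the 2 probes' ratios was 0.94, beside 0.36 for genes with an SD under 0.5, and 27 of the 33 had an r of at least 0.8. The second probe had an SD of at least 0.5 for only 9 of these 33 genes, with a median of 0.389. The probe used was the brighter one.

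A single array carried much of the large spread. For 50 of the 153 genes the most extreme array was t0 2, and for 19 it was t0 3. With each gene's most extreme array left out, 93 of the 153 fell below an SD of 0.5. The following paragraphs give each set of genes that moved together with its values by array, and say where 1 mouse made it. The sets come from a tree of the 300 genes with the largest SD, divided where the average r falls under 0.6. It yielded 11 sets of at least 8 genes, holding 217 genes. Since SD and r chose and sorted these genes, their values are a description and carry no test.

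**Figure D3:**
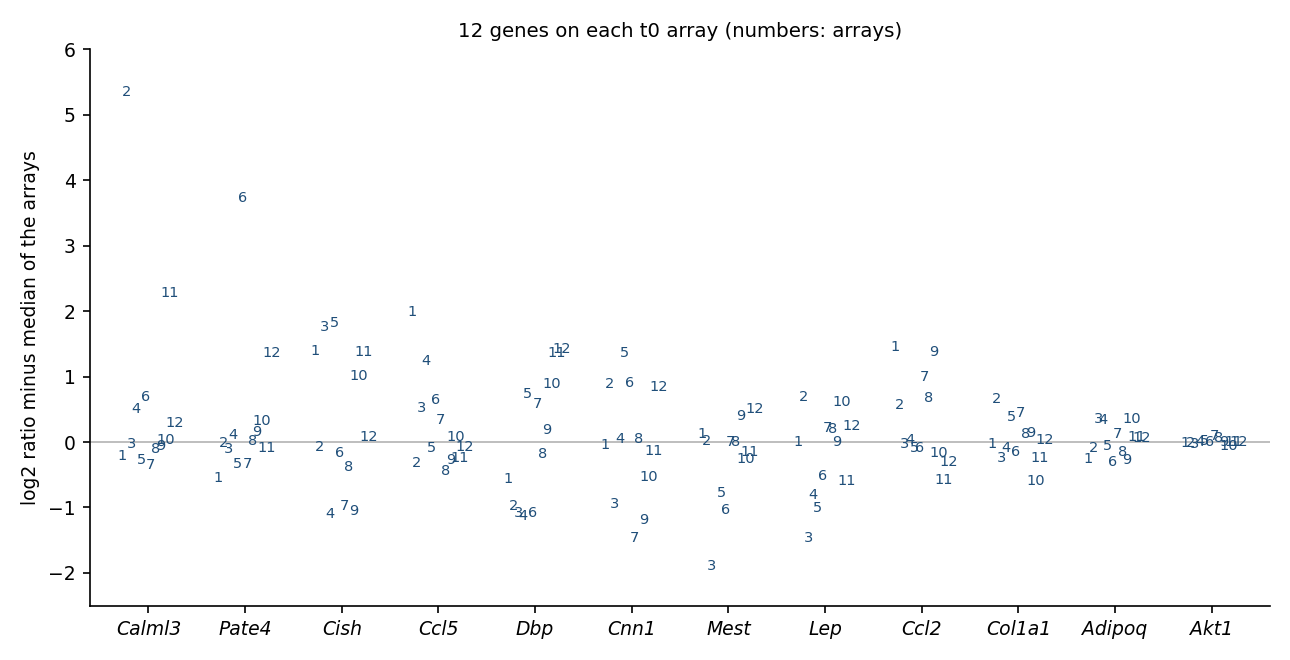
Log2 ratio minus its median over the arrays (y axis) for 12 genes, with each number marking a t0 array. Array 2 stands alone for Calml3 and array 6 for Pate4, Cish falls into a higher set of 5 arrays and a lower set of 7, Dbp and Lep spread without a break at 1 array, and Akt1 hardly moves.

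The largest set held 60 genes, 54 with curated names, and was high in 1 mouse. Its mean ratio was 0.75 on t0 2, -0.75 on t0 11 and -1.40 on the lowest array, with a median of -1.34. Calml3, an epithelial calmodulin-like protein, had the largest SD of all curated genes, 1.63. Its log2 ratio was -3.85 on the lowest array, -3.51 at the median and 1.84 on t0 2, with -1.23 on t0 11. Its probe lies at chr13:3802177-3802236 on the reverse strand (mm8). Foxj1, the master transcription factor of motile cilia, ran from -2.05 to 0.80 with a median of -1.82. The cilium-associated genes Ccdc153 (SD 1.27) and Dynlrb2 (0.94), the axonemal gene Tekt1 (0.70), the epithelial protease Mmp7 (1.21), the progenitor surface gene Plet1 (1.20), the gluconeogenic enzyme Fbp1 (1.16) and the microvillus protein Vil1 (0.54) were all highest on t0 2. Without t0 2 the SD of Calml3 was 0.75, that of Foxj1 0.37 and that of the set's mean 0.21 in place of 0.61, and at most 10 of the 60 genes stayed in 1 set. Array t0 2 also had the largest share of probes above background, and the r of the set's mean with that share was 0.87 over 12 arrays. Its part in the result was not tested.

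Genes above background on only 1 to 8 arrays numbered 8616, and 28 of them lay at least 2 log2 units above their median on their highest array. That array was t0 2 for 20 of these 28 genes, t0 9 for 5 and t0 4, t0 6 and t0 11 for 1 each. Tmem212 was at 1.17 on t0 2 with a median of -3.02 and the kidney-type cadherin Cdh16 at 1.22 with a median of -2.11, both with t0 2 highest. On t0 9, Dpp10, a peptidase-like membrane protein, stood at 3.13 with a median of -0.20, the pseudogene Serpina3l-ps at 2.96 with a median of -0.15 and the defensin gene Defb35 at 2.87 with a median of -0.12. Lcn5, a lipocalin of the epididymis, stood at 2.95 on t0 11 with a median of -0.54 and was above background on 2 arrays. Cyp1a1, a cytochrome P450 that metabolises aromatic compounds, stood at 3.43 on t0 6 with a median of 0.02. The highest array of each of these genes was above background, and the other arrays give only an upper bound where they were not.

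Genes of the seminal vesicle made a set of 12 that was high in another mouse. Its mean ratio was -2.66 on t0 6, -4.37 on t0 12 and between -5.62 and -4.98 on the other 10 arrays. All 7 measured genes of the epididymis and seminal vesicle list were in it, and 6 of these 7 had an SD of at least 0.5, beside 0.956% of all genes. Pate4, a secreted protein of the male tract, had ratios of -7.34 on the lowest array, -6.79 at the median and -3.06 on t0 6, at chr9:35357403-35357462 on the reverse strand (mm8). The secretory protein genes Svs5 (SD 0.96), Svs4 (0.90) and Svs6 (0.78) were also highest on t0 6, while the lowest array was t0 1 for Pate4, Svs4 and Svs6 and t0 4 for Svs5. Strongly negative ratios say that the pool held much more of these transcripts than any t0 mouse. By level the 7 listed genes differed widely. Svs5 was at 13.81, 14.28 and 17.42 on the lowest, the median and the highest array. Its mean was above 96.0% of genes. Svs4 and Svs6 had mean levels of 13.53 and 13.22, and Svs3a and Svs2 of 10.97 and 10.22. Svs1 and Pate4 were dim at 7.99 and 7.89, above only 24.4% and 22.8% of genes. Without t0 6 the SD of the set's mean was 0.33 in place of 0.80 and none of the 12 genes stayed in a set of at least 8. The sperm protamine genes Prm1 and Prm2 had SDs of 0.33 and 0.20, and t0 4 was highest for both.

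Circadian clock genes varied over a range that the arrays filled. In the molecular clock, ARNTL with CLOCK drives genes through E-boxes, among them the period genes, Nr1d1, Nr1d2 and the PAR bZIP factors Dbp, Tef and Hlf. Those factors act through D-boxes, which NFIL3 represses, and the receptors NR1D1 and NR1D2 repress Arntl and Nfil3 through ROR elements. The clock list's 16 measured genes had a median SD of 0.392, beside 0.129 over all genes, and 6 of them had an SD of at least 0.5, beside the 0.956% of all genes. The promoters below are shown because they hold the letters of these elements in genes that moved with or against Dbp. They are the 250 bases before the gene start (RefSeq, GRCm38.p6), 5′ to 3′ on the gene's strand, and capitals mark the motif on either strand. Tef lies at chr15:81802423-81802672 (forward) and Per1 at chr11:69098699-69098948 (forward), each with 1 E-box CACGTG. Per3 lies at chr4:151044666-151044915 (reverse) with 2 D-boxes TTATGTAA, and Nfil3 at chr13:52981040-52981289 (reverse) with 1 ROR element TAGGTCA, printed on its other strand.
Tef: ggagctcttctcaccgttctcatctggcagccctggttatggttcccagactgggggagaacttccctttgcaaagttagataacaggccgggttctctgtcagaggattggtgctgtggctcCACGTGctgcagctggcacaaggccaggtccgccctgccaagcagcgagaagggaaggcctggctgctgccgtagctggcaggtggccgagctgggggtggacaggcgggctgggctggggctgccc
Per1: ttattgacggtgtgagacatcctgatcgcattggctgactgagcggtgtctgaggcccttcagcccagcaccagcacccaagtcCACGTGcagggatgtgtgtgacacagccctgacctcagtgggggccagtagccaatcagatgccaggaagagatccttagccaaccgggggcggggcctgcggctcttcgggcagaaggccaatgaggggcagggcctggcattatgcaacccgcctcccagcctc
Per3: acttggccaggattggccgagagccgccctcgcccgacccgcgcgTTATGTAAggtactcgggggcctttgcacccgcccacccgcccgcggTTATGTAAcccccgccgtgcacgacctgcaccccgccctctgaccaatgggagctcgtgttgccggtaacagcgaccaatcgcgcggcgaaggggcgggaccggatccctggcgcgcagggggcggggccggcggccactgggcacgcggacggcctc
Nfil3: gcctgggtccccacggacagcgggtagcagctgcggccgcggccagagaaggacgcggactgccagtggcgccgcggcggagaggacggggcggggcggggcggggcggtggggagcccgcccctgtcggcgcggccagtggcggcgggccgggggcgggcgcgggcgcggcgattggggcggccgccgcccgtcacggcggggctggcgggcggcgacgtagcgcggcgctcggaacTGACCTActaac

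An E-box of these letters stood in 6.02% of the 32851 promoters of this length in the table, the D-box in 0.819% and the ROR element in 2.23%. The motifs do not overlap one another in the 4 promoters shown. Of the 16 clock genes with a promoter in the table, 5 held the E-box (Bhlhe41, Ciart, Cry1, Per1 and Tef), 1 the D-box (Per3) and 1 the ROR element (Nfil3). A match is a string of letters in this window and not a site. Per1, Per3 and Nfil3 were chosen for display after their values were seen.

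Dbp had log2 ratios of -2.11, -0.98 and 0.45 on the lowest, the median and the highest array (SD 0.98, probe at chr7:45577937-45577996, forward strand, mm8). It was highest on t0 12 and t0 11 and lowest on t0 4, t0 3, t0 6 and t0 2, a range that the other arrays filled. Its level was 13.56 ± 1.02, above 91.5% of genes. Per2, a period gene, ran from -1.48 on t0 3 to 0.50 on t0 12 and moved with Dbp (Pearson r = 0.94, permutation p = 1e-05, adjusted p = 8.33e-05, Spearman rho = 0.97, permutation p = 1e-05, n = 12). Arntl ran from -0.91 on t0 11 to 0.71 on t0 6 and moved against Dbp (r = -0.94, permutation p = 1e-05, adjusted p = 8.33e-05, rho = -0.87, permutation p = 0.00053, n = 12). The arrays lowest in Arntl were thus the arrays highest in Dbp, t0 11 and t0 12. Without these 2 arrays r was 0.91 for Dbp with Per2 and -0.91 for Arntl with Dbp.

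The other clock genes lined up by their known place in the loop. Arntl also moved against Nr1d1 (r = -0.87, permutation p = 0.00039, adjusted p = 0.000975, rho = -0.92, permutation p = 0.00014, n = 12). The genes most like Dbp by r over the 12 arrays, among all genes with curated names, were Nr1d2 (0.98), Tef (0.97) and Per2 (0.94), followed by Tacc2 and Wwc2 (0.91 each). Arntl was the gene least like it. Tef ran from -1.13 to 0.47 and Hlf from -1.71 to 0.11, both highest on t0 12. Nfil3 ran the other way, from -0.98 on t0 12 to 0.38 on t0 4, with an r of -0.94 to Dbp, and a second Nfil3 probe followed the first with an r of 0.98. Per3 had an r of 0.87 and Per1 of 0.82 to Dbp. Clock itself had an SD of 0.21.

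The set of co-varying genes around the clock held 16 genes, among them 6 of the 16 clock genes (Bhlhe40, Dbp, Hlf, Nr1d2, Per2 and Tef). It also held Pfkfb3, an activator of glycolysis, and Pmepa1, an antagonist of TGF-beta signalling. Without t0 12 none of the 16 genes stayed in a set of at least 8, and without any other 1 array 8 to 16 of them stayed together. Neither the time of killing nor the time since the last meal was analysed here.

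**Figure D4:**
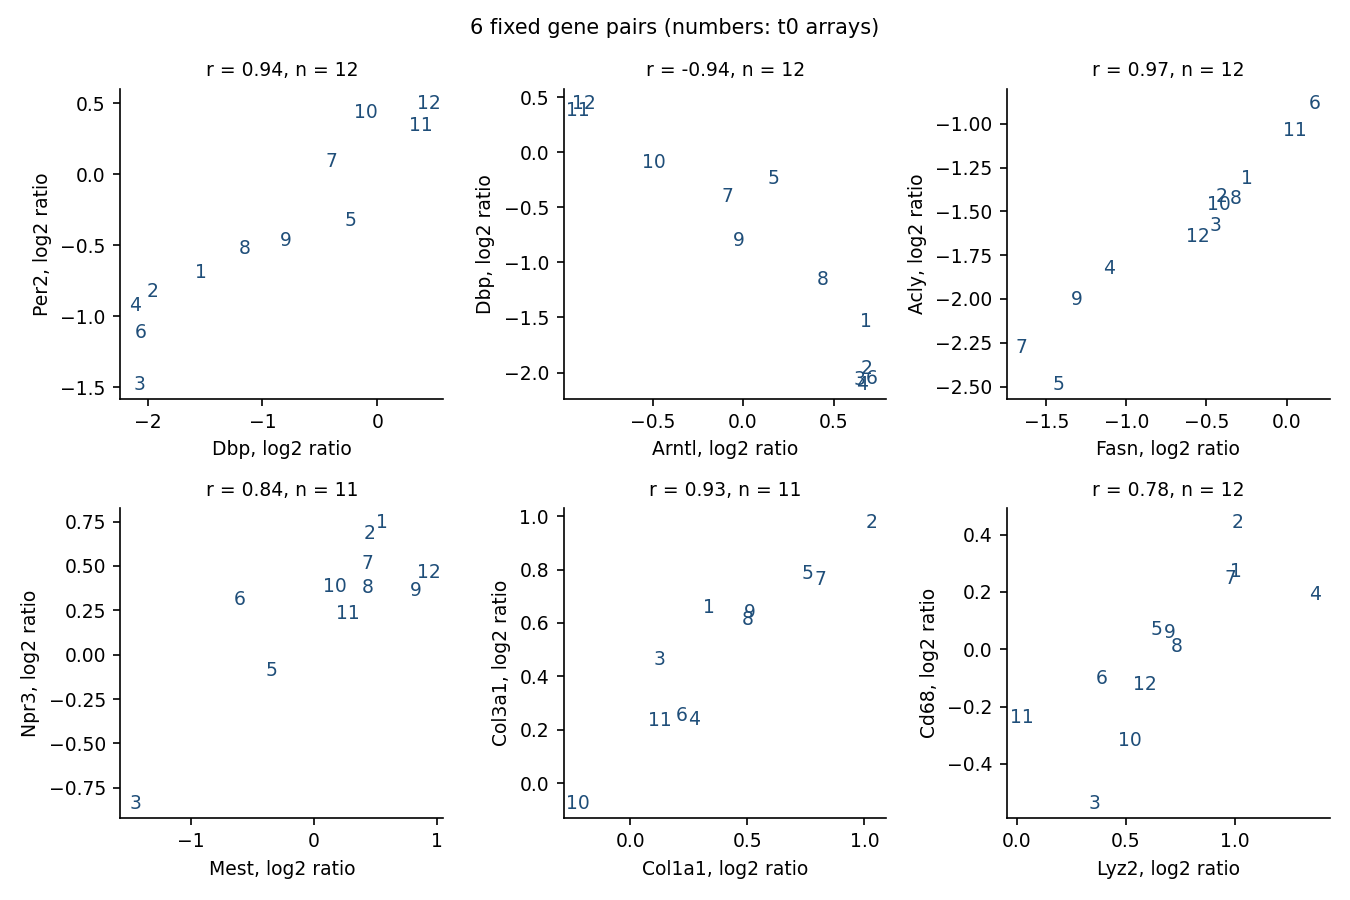
Log2 Cy5/Cy3 ratios of 6 fixed gene pairs, with each number marking a t0 array. Dbp and Per2 rise together, Arntl falls as Dbp rises, and the Mest and Npr3 plot has t0 3 far from the other arrays; the r values run from -0.94 to 0.97.

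A set of 24 genes held Mest and Lep, which belong to a list of 12 fat mass expansion genes. Mest, an imprinted gene of the mesoderm that marks growing adipocytes, ran from -1.46 on t0 3 to 0.93 on t0 12 with a median of 0.43 (SD 0.70, 11 arrays, probe at chr6:30698289-30698348, forward strand, mm8). Its spot on t0 4 was left out as an outlier. Lep, the gene of the satiety hormone leptin, had ratios of -1.32, 0.16 and 0.85 on the lowest, the median and the highest array (SD 0.67, chr6:29023244-29023303, forward strand, mm8). Both genes were lowest on t0 3, and t0 5 was the next lowest for Lep.

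The fixed pairs with Mest passed the test by Pearson's r and leaned on t0 3. Mest moved with Npr3, the clearance receptor of natriuretic peptides (r = 0.84, permutation p = 0.00549, adjusted p = 0.00915, rho = 0.68, permutation p = 0.025, n = 11), and with Bmp3, a TGF-beta family ligand (r = 0.82, permutation p = 0.00248, adjusted p = 0.00564, rho = 0.77, permutation p = 0.00696, n = 11). With Lep the r was 0.79 (permutation p = 0.0049, adjusted p = 0.00875) but the rho of 0.57 had a permutation p of 0.0703 (n = 11). With Sfrp5, a secreted Wnt inhibitor, the r was 0.66 (permutation p = 0.0282, adjusted p = 0.044) and the rho of 0.52 had a permutation p of 0.108 (n = 11). Without t0 3 and t0 6, the arrays farthest from the median of Mest, the r was 0.65 with Npr3, 0.58 with Bmp3, 0.53 with Lep and 0.49 with Sfrp5. Without t0 3 alone, the adjusted permutation p was 0.15 for Npr3, 0.114 for Bmp3, 0.127 for Lep and 0.315 for Sfrp5, so that none of these pairs passed. The pair of Mest with Sfrp5 also missed the threshold without any 1 of t0 5, 7, 9, 10, 11 and 12. Of the 12 genes in the list, 5 were in this set (Bmp3, Lep, Mest, Npr3 and Trp53inp2), and 3 had an SD of at least 0.5, beside 0.956% of all genes. Cav1 and Cavin1, which belong to the same list, had SDs of 0.23 and 0.17. Kcna1 ran against the other members of the list, with an r of -0.71 to their mean, and Naaladl2 had an r of -0.04.

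The other members of the Lep set included lipid and cytoskeleton genes. They were Mogat2, a monoacylglycerol acyltransferase (SD 0.77), Dgat2, which completes triglyceride synthesis (0.59), Scd2, a desaturase (0.62), Hspb7, a small heat shock protein (0.61), and Tuba1a, an alpha-tubulin (0.64). Ighm, the immunoglobulin mu chain, was also in it with an SD of 0.49. A second Ighm probe followed the first with an r of 0.93, another Ighm probe had an r of -0.16, and the set held no other B cell marker. A set of 20 genes ran opposite to the Lep set, with an r of -0.94 between the 2 means over 12 arrays. It held Cyp2e1, a cytochrome P450, Cfd, Hcar2, the receptor for the ketone body beta-hydroxybutyrate that restrains lipolysis, Pon1, an HDL-associated esterase, and Cidea and Cox8b, which are 2 of the 11 measured brown and beige adipocyte markers. Those 11 had a median pairwise r of 0.01 and did not move as a list. Elovl3 and Fgf21 were lowest on t0 3, and their r with the mean of the other markers was -0.33 and -0.26, while Cox7a1 had -0.34. The mean of the set of 20 genes was highest on t0 3 (0.44) and t0 5 (0.35), the arrays on which the Lep set's mean was lowest (-0.81 and -0.70). Pon1 was the gene least like Lep, with an r of -0.94. Lep did not pass with Adipoq (r = -0.22, permutation p = 0.492, rho = -0.07, permutation p = 0.836, n = 12) or with Itgax, an integrin of macrophages (r = 0.08, permutation p = 0.821, rho = -0.07, permutation p = 0.835, n = 12).

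Cish led a set of 11 genes. It encodes a feedback inhibitor of cytokine receptors that signal through STAT5. Its ratios were 1.09, 1.03, 0.66, 0.64 and 0.28 on t0 5, 3, 1, 11 and 10 and lay between -1.83 and -0.65 on the other 7 arrays (SD 1.11, chr9:107159966-107160025, forward strand, mm8). No array lay between -0.65 and 0.28. No single array made this spread, since the SD was 1.05 without t0 5. Adrb1, the beta-1 adrenergic receptor, ran from -0.52 to 1.40 and was highest on t0 5. Ier5, Phlda1, Lrig3, Rasl11b, Gbp8 and the phosphatase gene Dusp4 completed the curated members. Other genes known to respond to STAT5, chosen after these values were seen, had smaller spreads and weaker likeness over the 12 arrays. Socs2 had an SD of 0.22 and an r of 0.28 to Cish, Igf1 an SD of 0.21 and an r of 0.29, and Bcl6, which STAT5 represses, an SD of 0.63 and an r of -0.33. Adrb1 had an r of 0.89 and a rho of 0.79 to Cish. These are descriptions, since Cish and Adrb1 were grouped by their r.

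Immune genes made several small sets. A set of 17 genes, with T cell and interferon-inducible genes among them, was high on t0 1 (mean 1.06) and t0 4 (0.38). Its mean lay between -0.59 and 0.05 elsewhere. It held Ccl5, a chemokine of T and NK cells (lowest -0.78, median -0.33, highest 1.66), the T-bet gene Tbx21, the receptors Cxcr3 and Cxcr6, Cd3d of the T cell receptor complex, the kinase gene Lck, Ifng and the interferon-inducible genes Cxcl10 and Iigp1. Only 2 of the 12 measured T and NK cell markers were among the 300 genes clustered and in this set. Not all 12 moved alike. Their r with the mean of the other markers ran from -0.16 for Cd3e and -0.06 for Cd4 to 0.95 for Cd3d. Without t0 1 the SD of the set's mean was 0.29 in place of 0.46, and the SD of Cd3d 0.22 in place of 0.46. None of the 17 genes then stayed in a set of at least 8, against 15 to 17 without any other 1 array. The monocyte attractants Ccl2 and Ccl7 headed a set of 8 that was high on t0 1 (0.93), t0 9 (0.75) and t0 7 (0.69). Ccl2 ran from -0.54 to 1.49 with a median of 0.04. At most 1 of these 8 genes stayed in a set of at least 8 without t0 1, 5, 6, 7, 9, 10, 11 or 12, and 5 to 8 stayed together without t0 2, 3, 4 or 8.

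Ccl8, another monocyte attractant, fell in a different set of 11 with the matrix genes Lum, Cilp, Fbn1 and Timp1 and the acute phase genes Saa3 and Hp. Ccl8 had an SD of 1.02, with 1.04 on t0 2, 0.48 on t0 4 and -2.11 on the lowest array. The set's mean was highest on t0 2 at 1.47, against -0.29 to 0.53 on the other 11 arrays. Its r with the share of probes above background was 0.78, and its part in the result was not tested. At most 2 of these 11 genes stayed in 1 set without t0 1, 2, 3, 7 or 10, and 4 to 10 without any other 1 array.

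A set of 10 held the cell division genes Birc5, Ccnb2, Cdc20 and Mki67 next to Ctss, a lysosomal protease of macrophages, and Fcna and F13a1, which macrophages express. It was high on t0 7 (0.77), t0 4 (0.68) and t0 2 (0.66) and lowest on t0 3 (-0.40). None of its 10 genes stayed in a set of at least 8 without t0 7 or t0 10. Lyz2, which had ratios of 0.02, 0.67 and 1.37 on the lowest, the median and the highest array, moved with Cd68, a lysosomal protein of macrophages (r = 0.78, permutation p = 0.00312, adjusted p = 0.006, rho = 0.88, permutation p = 0.00039, n = 12). Among the genes most like Lyz2 were Plcg2, Lyz1, C1qc and Gmfg, with r from 0.95 to 0.97. Lyz1 is a near-identical copy of Lyz2, so their probes may share signal. None of the 22 macrophage markers had an SD of at least 0.5, beside 0.956% of all genes, and their median pairwise r was 0.59, beside -0.00 over all pairs of genes.

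A set of 28 genes held stromal genes and 2 of the 13 measured markers of smooth muscle and pericytes, Cnn1 and Myh11. Ccl21c, a chemokine of lymphatic vessels and lymph node stroma whose near-identical copies can share its probe, ran from -1.85 on t0 7 to 0.83 on t0 5 (SD 0.82). Cnn1, the calponin of smooth muscle, ran from -3.41 on t0 7 to -0.59 on t0 5 (SD 0.90). Myh11, the myosin heavy chain of smooth muscle, Mgp, an inhibitor of calcification, Reln, secreted by lymphatic endothelium, and the chemokine gene Ccl19 were also in it. The mean of the set was 0.37, 0.36 and 0.27 on t0 5, 2 and 6 and -1.05 and -1.04 on t0 7 and 9. The SD of the mean was 0.49, and 0.45 without t0 7. The markers of smooth muscle and pericytes had a median SD of 0.287 over 13 genes, and 1 of them, Cnn1, had an SD of at least 0.5, beside 0.956% of all genes. Their r with the mean of the other markers ran from -0.20 for Mylk and -0.14 for Cspg4 to 0.95 for Myl9.

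Mesothelial genes varied together. Their 14 measured markers had a median pairwise r of 0.77, and their mean ratio was lowest on t0 10 at -0.58 and highest on t0 3 at 0.35. Upk3b moved with Msln (r = 0.85, permutation p = 0.00023, adjusted p = 0.000893, rho = 0.85, permutation p = 0.00071, n = 12). The mast cell protease genes Cpa3 and Cma1 moved together (r = 0.90, permutation p = 2e-05, adjusted p = 0.000125, rho = 0.97, permutation p = 1e-05, n = 12), both lowest on t0 1. So did the globin genes Hba-a1 and Hbb-bt (r = 0.91, permutation p = 0.00038, adjusted p = 0.000975, rho = 0.80, permutation p = 0.00281, n = 12), also both lowest on t0 1.

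Fibrillar collagen genes varied together, and other matrix genes did not all follow them. Col1a1, a chain of type I collagen, had ratios of -0.22, 0.37 and 1.03 on the lowest, the median and the highest array, with t0 10 lowest and t0 2 highest. It moved with Col3a1 (r = 0.93, permutation p = 0.00013, adjusted p = 0.00065, rho = 0.93, permutation p = 7e-05, n = 11). Without t0 2 and t0 10 the r was 0.84. The genes most like it were Loxl1, a collagen cross-linking enzyme, Snai1, Col1a2, Fbn1 and Col3a1, with r from 0.93 to 0.94. The 31 matrix genes had a median pairwise r of 0.46 and 3 of them had an SD of at least 0.5, beside 0.956% of all genes. Thbs1, the matricellular protein thrombospondin, had the largest SD (0.69) and an r of 0.14 with the mean of the other members. That r was -0.20 for Timp3, -0.08 for Thbs2, 0.08 for Mmp3 and 0.11 for Dcn. Adipoq did not pass with Col1a1 (r = -0.41, permutation p = 0.185, rho = -0.39, permutation p = 0.211, n = 12).

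Some lipid synthesis genes varied together, while the list as a whole did so weakly. The 21 fatty acid synthesis genes had a median pairwise r of 0.25. With the mean of the other members the r was -0.22 for Elovl5, -0.16 for Acacb, 0.12 for Fads2 and 0.29 for Scd1. Fasn had ratios of -1.65, -0.43 and 0.18 on the lowest, the median and the highest array (SD 0.59), with t0 6 highest and t0 7 lowest. It moved with Acly, which makes cytosolic acetyl-CoA (r = 0.97, permutation p = 1e-05, adjusted p = 8.33e-05, rho = 0.99, permutation p = 1e-05, n = 12), and with Elovl6, which elongates palmitate (r = 0.85, permutation p = 0.00025, adjusted p = 0.000893, rho = 0.86, permutation p = 0.00066, n = 12). The genes most like Fasn were Acly, Acss2, Atp5a1, Pdhb and Srsf10. Neither of the pairs with a transcription factor passed, neither Srebf1 with Fasn (r = 0.11, permutation p = 0.737, rho = -0.12, permutation p = 0.717, n = 12) nor Mlxipl with Acly (r = 0.40, permutation p = 0.2, rho = 0.25, permutation p = 0.429, n = 12). The cholesterol synthesis genes Hmgcs1 and Sqle moved together (r = 0.90, permutation p = 0.00039, adjusted p = 0.000975, rho = 0.78, permutation p = 0.00635, n = 11), and the 22 measured genes of that list had a median pairwise r of 0.54. Pnpla3, a lipase of lipid droplets, had the largest SD of the fatty acid synthesis list at 0.63, where 3 of 21 genes reached 0.5, beside 0.956% of all genes.

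In all, 16 of the 25 fixed pairs that could be measured passed at an adjusted p under 0.05 by Pearson's r, and 15 by Spearman's rho. These pairs were chosen with earlier results of these data known, so the counts describe them and not gene pairs at large. Over all pairs of genes measured on every array the median absolute r was 0.24. Cd79a, of the pair with Ighm, was not above background on 9 arrays. Fos and Egr1, immediate early genes, moved together (r = 0.79, permutation p = 0.00309, adjusted p = 0.006, rho = 0.75, permutation p = 0.00664, n = 12). Pdk4, which turns off pyruvate oxidation, and Angptl4 passed by rho alone (r = 0.51, permutation p = 0.0953, rho = 0.76, permutation p = 0.00615, n = 12). The glucocorticoid-responsive genes Fkbp5 and Tsc22d3 did not pass (r = -0.04, permutation p = 0.908, rho = -0.13, permutation p = 0.7, n = 12), nor did the neutrophil genes S100a8 and S100a9 (r = -0.23, permutation p = 0.479, rho = -0.22, permutation p = 0.499, n = 12) or the interferon-inducible genes Ifit1 and Isg15 (r = 0.47, permutation p = 0.124, rho = 0.53, permutation p = 0.0793, n = 12). Without the 2 arrays farthest from the median of the first gene, r was -0.82 for Arntl with Nr1d1 and between 0.73 and 0.97 for the other passing pairs whose value is not given above. The Fkbp5 probe used had an r of -0.03 and 0.03 with 2 other Fkbp5 probes, each above background on 12 arrays. For Tsc22d3 the same r was 0.97 and 0.80. The result of this pair is therefore given for the Fkbp5 probe used and not for the gene. A p that misses the threshold does not show that a pair varies independently.

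**Figure D5:**
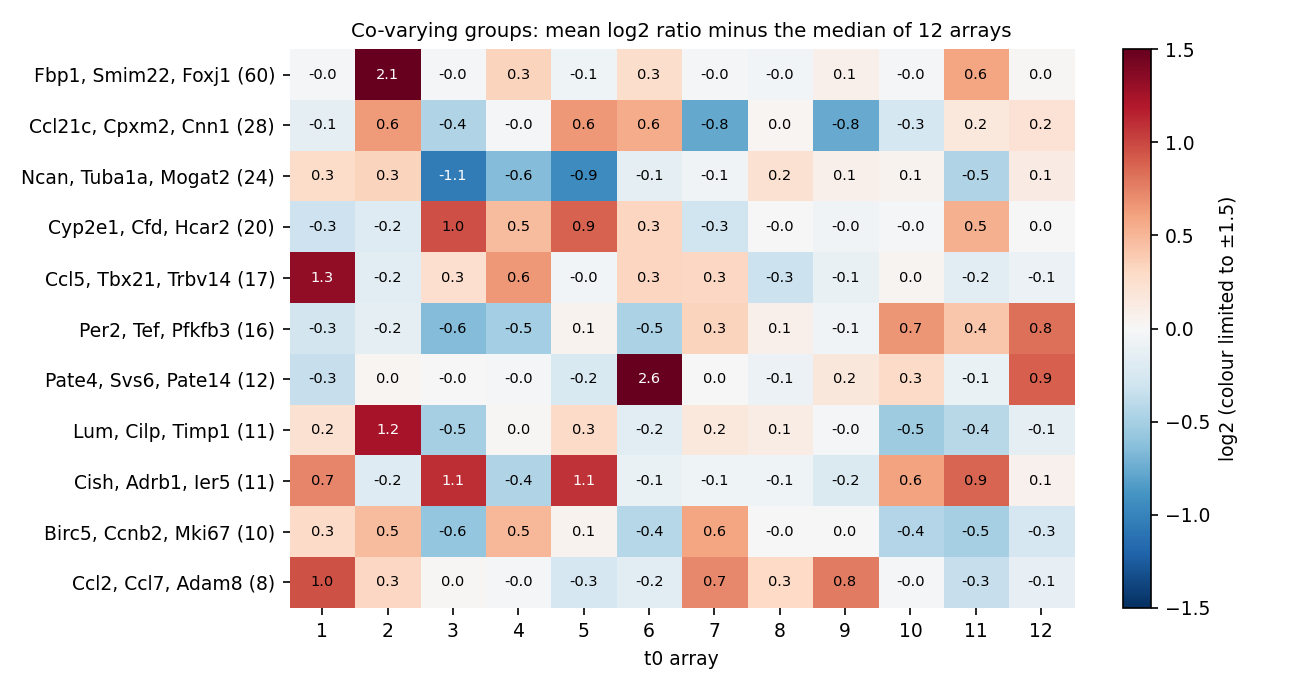
Mean log2 ratio of each co-varying set on each t0 array, minus the set's median over the arrays; rows give 3 leading genes and the number of genes, columns the arrays. The 60-gene set stands out on t0 2 and the seminal vesicle set on t0 6, while the Lep and Cyp2e1 sets run in opposite directions on t0 3 and t0 5.

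Other variable genes belonged to none of the gene lists. The X-linked lymphocyte-regulated genes Xlr4b and Xlr3c, members of a family of near-identical copies that probes can share, both ran from below -1.7 on t0 11 to above 1.5 on t0 2, with SDs of 0.87 each. Rgs2, a regulator of G protein signalling, was at 1.98 on t0 3 and at -1.13 on the lowest array (SD 0.86, and 0.58 without t0 3). A second Rgs2 probe followed it with an r of 0.95. Slc15a2, a peptide transporter, ran from -1.55 on t0 12 to 0.67 on t0 2. The 25th gene by SD was Dcdc2a at 0.82, and Bex4 stood just outside at 0.81.

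At the other end, Prdx2, a peroxidase, had an SD of 0.03 and a range from -0.15 to -0.03, the smallest SD among the 4002 brightest genes. Akt1, the kinase downstream of the insulin receptor, followed with an SD of 0.04 and a range from -0.25 to -0.11. Gnptg, Mea1, Mrpl24, Med10, Nudt9, Pja1, Maf1 and Bnip3l completed the 10 smallest, with SDs up to 0.05. Without loess, the SDs of these 10 genes were 0.12 to 0.15, where the median over all genes was 0.179. Second probes of Prdx2 and Akt1 had SDs of 0.09 each. Adipoq had an SD of 0.24, more than 90.6% of genes, and ratios of 0.33, 0.64 and 0.99 on the lowest, the median and the highest array. The 29 measured ribosomal protein genes had a median SD of 0.116 and the 26 respiratory chain genes one of 0.150, beside 0.129 over all genes. No gene of either list reached 0.5, beside 0.956% of all genes, so this count does not set the lists apart.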

How the data were processed

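The members and gene lists, pairs and rules were chosen with earlier results of these data known. The authors deposited 1 scan per mouse of 2-colour Agilent 4x44k arrays, and per the file headers the software was Feature Extraction 9.5.3.1. The intensity values used were, per the file headers, mean spot signals and median local backgrounds on a linear scale, not normalised. The processed intensity values that the authors obtained with Feature Extraction served as an alternative. Levels are the log2 values of 22510 probes in the authors' series matrix. Across probes their r was 0.981 or more with log2 processed Cy5 and 0.119 or less with the ratio, on every array, and array medians ran from 9.26 to 9.27. Their direction is thus Cy5 level, their scale log2 and their medians matched, and the sources used here do not say how the authors made them. Per the labels, Cy5 carried the mouse and Cy3 the pool on every array, so dye bias of a probe is constant.

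Ratios were computed from 43379 spots that are not controls (41174 probes). Background was corrected with normexp (offset 50) and ratios were normalised within arrays by loess (4 iterations, controls at weight 0). Normexp on all spots, the plan, gave t0 10 and t0 12 Cy5 background SDs of 256 and 26.8, caused by 5 spots each with a net signal under -50. The values reported therefore come from normexp fitted without these spots, a swap of the planned roles chosen after seeing the data, and normexp on all spots is an alternative. Outlier spots were left out and spots of a probe averaged. Probes above background in Cy5 on at least 9 of 12 arrays were kept (23885), keeping 1 probe per gene, the brightest. Names came from the accession (24367 probes), symbol (6307), synonym (2390) or another accession (48) through RefSeq (GRCm38.p6), and 8062 probes kept the file's name. Probe positions are on mm8, per the file headers.

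Named were the 20 brightest genes, the 25 with the largest and 10 with the smallest SD, up to 3 per list, leading set members, the nearest genes to 7 seeds (curated symbols only), and genes said to be chosen after their values were seen. Pairs were tested with two-sided permutations (100000), adjusted by Benjamini-Hochberg over 25 pairs. A p of 1e-05 is the smallest these permutations can give. Mice are separate animals per the labels. Positions were tested with limma. The steps for spread, sets, pairs and positions were tried on simulated data, and the other steps were not. Tools were R 4.3.3, limma 3.58.1, data.table in version 1.17.8, Python 3.11.15, numpy 2.4.6, pandas 2.3.3 and scipy 1.17.1. Some genes that the rules name are not reported here.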

Additional observations from a re-analysis of the deposited data

How the results depend on the processing

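No paired analysis was possible because only the t0 group was analysed and no groups were compared. A test over slides, and values with slide means removed, could not be had, since each t0 array lay on a slide of its own; the test over array positions was chosen after seeing the data in its place. Scaling the channels between arrays (Aquantile) left every ratio unchanged by construction.

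With the processed signals of Feature Extraction, 434 genes in place of 153 had an SD of at least 0.5, and 32 in place of 12 had one of at least 1. With normexp on all spots, as planned, the counts were 158 and 14. Over the other alternatives the first count ran from 111 to 202. Leaving out 1 array at a time gave 113 to 167 genes with an SD of at least 0.5 and 4 to 14 with one of at least 1, the 4 without t0 2. Without t0 2 and t0 6 together, an alternative chosen after seeing the data, 2 genes had an SD of at least 1. The median SD ran from 0.118 to 0.179. Clustering 150 genes gave 5 sets and 600 genes 21 sets in place of 11, and leaving out 1 array gave 8 to 12. The test over array positions called 0 to 1 genes with 1 array left out. Between 12 and 17 fixed pairs passed in place of 16, fewest without t0 3 or with the matrix values. Of the 20 brightest genes, 14 stayed when all probes of a gene were averaged and 16 with processed Cy5 signals.

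Pairs that changed sign had not passed. Fkbp5 with Tsc22d3 had an r of 0.0087 with processed signals, 0.028 with the matrix, 0.11 without loess and 0.64 (adjusted permutation p = 0.0394) with all probes averaged, and -0.17 to 0.091 with 1 array left out. S100a8 with S100a9 had 0.10 with processed signals and 0.11 with the matrix. With 1 array left out, Lep with Adipoq ran from -0.47 to 0.053, Lep with Itgax from -0.0897 to 0.17 (rho -0.0699) and Srebf1 with Fasn from -0.065 to 0.23 (rho -0.12). Lyz2 with Cd68 fell short without loess (r = 0.59, adjusted permutation p = 0.0706). The cause of these changes was not tested. Of 690 recomputed SDs of named genes 35 moved by over 1.5 times, 11 of them without t0 2, 3 without t0 6, 5 with processed signals and 10 without loess, the last being the 10 least variable genes, which read 0.12 to 0.15 there. The share of probes above background, 55.7% to 86.3% by array, limits what could be measured on all arrays.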
